A study of Mus musculus with 6 samples.

Results

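The suppressor of cytokine signalling (SOCS) family was read in bulk RNA-seq of splenic Tregs, the Foxp3-expressing CD4+ lymphocytes that hold immune responses in check. Its members Socs1, Socs2, Socs3, Socs4, Socs5, Socs6, Socs7 and Cish were taken by gene symbol, and all 8 had a row among the 15944 genes of the table. The cells came from spleens of C57BL/6 mice, described as naive in the series text, with a red reporter of Foxp3 and a green reporter of the transcription factor RORγt. The first group held CD3+CD4+ Tregs positive for the RORγt reporter (RORγt+ Tregs), and the second held CD3+CD4+ Tregs negative for it that stained for the chemokine receptor CCR6 (CCR6+RORγt- Tregs). Each group had 3 libraries. No treatment, age or animal is given per library in the labels, so each p-value is set against library-to-library spread that could be technical. CCR6 was gated in the second sort only, so the groups differ in that gate as well as in the reporter. Values are normalized counts, a scale on which each library's reads were brought to a common level.

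SOCS proteins are feedback inhibitors of the JAK-STAT pathway, in which a cytokine receptor activates Janus kinases (JAKs) that phosphorylate STAT transcription factors. STATs switch on several SOCS genes, and the SOCS proteins then bind the receptor or the kinase through an SH2 domain. Through a SOCS box they recruit elongin B, elongin C and cullin-5, which mark bound proteins for degradation. Cish and Socs1 to Socs3 encode compact proteins known as cytokine-induced inhibitors, while Socs4 to Socs7 encode proteins with a longer N-terminal part. In Tregs, SOCS1 is known to protect Foxp3+ cells from interferon signals, SOCS3 restrains signals through the gp130 chain, and Cish and Socs2 are known targets of STAT5 downstream of IL-2.

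Depth, estimated from what 1 read is worth on the deposited scale, ran from about 9210000 to 14500000 reads, with RORγt+ replicate 3 the shallowest. That library stood apart (1247 genes at 0, where the others had 438 to 638) in this count, and the plot of fold changes gives each member with and without it. Among the Treg markers, Foxp3 lay between 10835 and 12609 normalized counts in RORγt+ and between 9790 and 10187 in CCR6+RORγt- libraries. Cd4 lay between 8038 and 12516 over the 6 libraries. Of the 6 Treg markers, 3 were separated with RORγt+ above, Foxp3 among them, where 18.1% of all genes were separated in either direction. None of the 6 passed in limma. Of the markers of other cells, the summed monocyte and macrophage list (5 of 7 genes in the table, led by Itgam and Ly6c2) reached 92.9 to 172 normalized counts in RORγt+ libraries and 47.8 to 87.9 in CCR6+RORγt- libraries. The plasma cell list (4 genes, led by Xbp1 and Jchain) summed to 761 to 981 against 628 to 702. B cell genes (6 genes, led by Ighm and Cd74) summed to 7126 to 10786 against 8299 to 10388, and CD8 T cell genes (Cd8a and Cd8b1) to 116 to 152 against 99.0 to 183. The γδ T cell genes (5 genes, led by Tcrg-C1 and Trdc) summed to 179 to 225 against 132 to 192, with overlap. Of these, Trdc (99.8, 89.2 and 109 against 51.5, 61.8 and 71.5) and Cd163l1 (11.04, 4.65 and 1.99 against 0, 0.70 and 0), the latter named after its values were seen, were separated between the sorts with RORγt+ above, though neither passed in limma (adjusted p = 0.354 and 0.324). The other 3 γδ T cell genes overlapped, with lower means in RORγt+ libraries. Tcrg-C1 averaged 49.9 against 52.6, and Tcrg-C2 (20.1 against 21.7) and Tcrg-C4 (21.4 against 31.2) were named after their values were seen. NK cell genes (3 genes, led by Eomes and Klrb1c) gave 64.2 to 92.3 against 45.5 to 81.3. Dendritic cell genes (4 of 5 genes, led by Zbtb46 and Xcr1) gave 12.99 to 41.5 against 39.3 to 47.5. The neutrophil gene S100a9 was listed at 0 in 1 RORγt+ and all 3 CCR6+RORγt- libraries and did not exceed 17.8. Red cell and platelet genes (4 of 6 genes, led by Hba-a2 and Hbb-bs) ranged from 72.6 to 6107. The summed monocyte and macrophage and plasma cell lists did not overlap between the sorts. Most of the plasma cell sum was Xbp1 (793, 701 and 957 against 658, 670 and 621), while Jchain overlapped. In the monocyte and macrophage list Ly6c2 overlapped, with a lower mean in RORγt+ libraries (31.7 against 33.8). Lyz2, named after its values were seen, overlapped as well. Single markers were also separated. Higher in RORγt+ libraries were 3 of 5 monocyte and macrophage, 2 of 4 plasma cell and 2 of 5 γδ T cell genes. Lower there were 2 of 4 dendritic cell genes. Beside these counts, 18.1% of all genes were separated in either direction, and no marker gene passed in limma. The part of other cell types in the results below was not tested.

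One member passed the test across all genes. Socs2 was called higher in RORγt+ Tregs, and no member was called lower. Thus 1 of 8 members was called, where limma with a Benjamini-Hochberg adjusted p under 0.05 called 0.564% of all genes and 0.32% as higher. The groups did not overlap in 4 of the 8 members, as they did not in 18.1% of all genes. Socs2 and Socs3 were higher in every RORγt+ library, and Socs5 and Socs7 were lower in every one. An unadjusted p under 0.05 was reached by the same 4 members, 2 in each direction, against 10.9% of all genes. The 4 members with a coding length of 601 to 771 bases (Cish, Socs1, Socs2 and Socs3) had log2 fold changes of 0.17 to 1.45, with a median of 0.38. The 4 with a coding length of 1308 to 1737 bases (Socs4 to Socs7) had values of −0.77 to −0.010, with a median of −0.42. Over all genes the median was −0.011. This grouping by protein type was noticed in the data and not tested, and it did not hold without RORγt+ replicate 3: there Socs1 turned to −0.041, Socs4 to 0.33 and Socs6 to 0.16, while the other 5 kept their sign. Fold changes here are RORγt+ minus CCR6+RORγt- on the log2(normalized count + 1) scale.

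**Figure D1:**
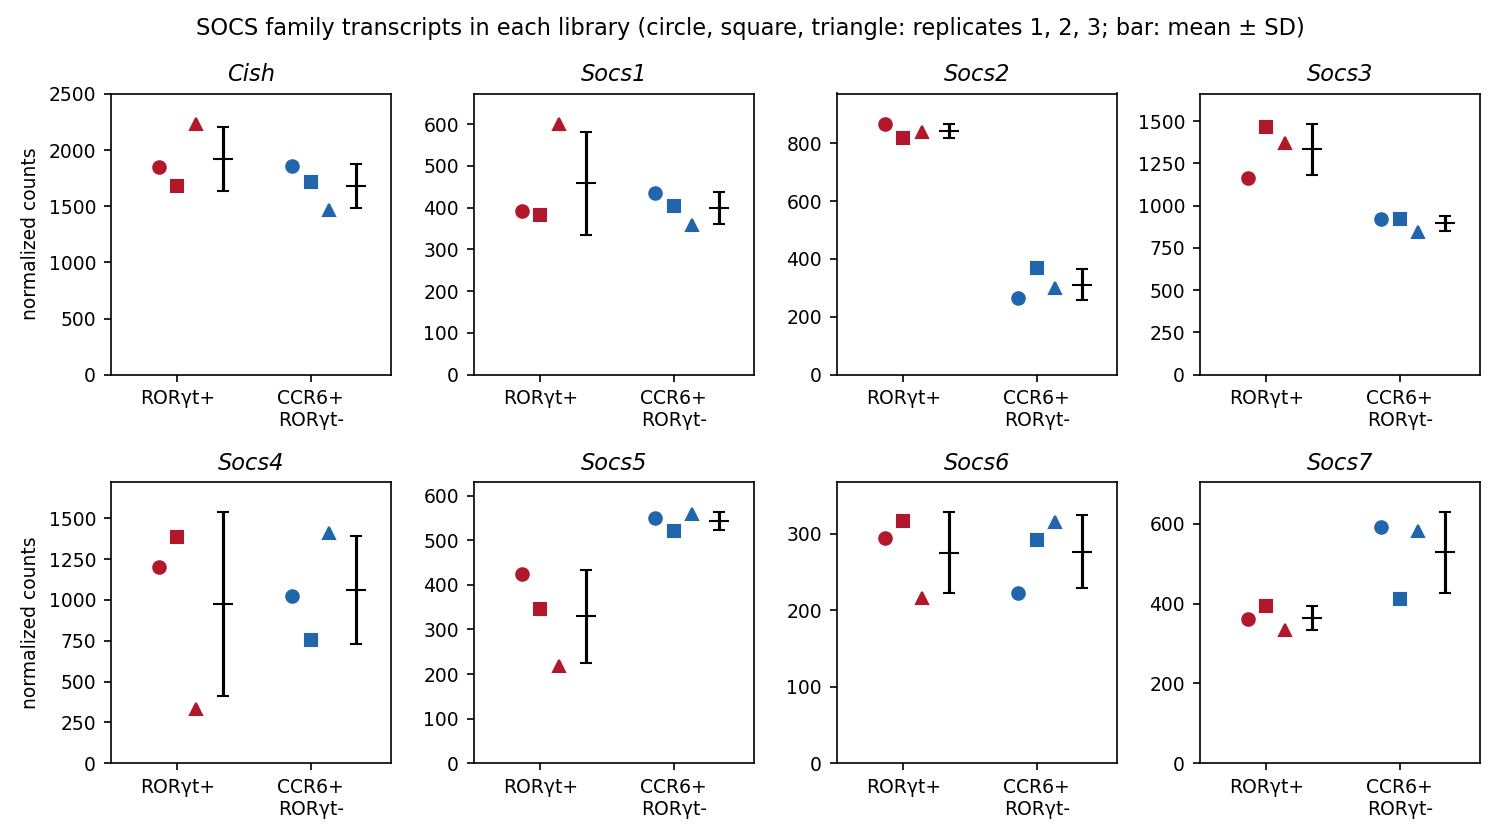
Normalized counts (vertical axes, from 0) of the 8 SOCS family genes in RORγt+ (red) and CCR6+RORγt- (blue) libraries; circles, squares and triangles are replicates 1, 2 and 3, and the bar gives the mean ± SD (n = 3). Socs2 and Socs3 are separated with RORγt+ above, Socs5 and Socs7 with RORγt+ below, and the RORγt+ triangle of Socs4 lies far under the other RORγt+ libraries at 335 normalized counts.

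Socs2 (chromosome 10, 95385362 to 95417180, minus strand, GRCm38) encodes an inhibitor best known for restraining growth hormone signalling, which T cells induce through STAT5. Its RORγt+ libraries held 868, 819 and 840.0 normalized counts and its CCR6+RORγt- libraries 265, 370.2 and 298. The lowest RORγt+ library thus held more than 2 times the normalized counts of the highest library of the other sort, and the coefficient of variation was 2.88% over the RORγt+ libraries and 17.2% over the others. Means were 842 ± 24.2 and 311 ± 53.6 (SD, n = 3), a ratio of 2.71. The log2 fold change was 1.45 ± 0.16 (SE, 95% interval 1.07 to 1.83, limma adjusted p = 0.0157), and Socs2 ranked 31 among all genes by p. About 259 to 823 reads per library stood behind these values. The fold change did not rest on RORγt+ replicate 3, without which it was again 1.45 (limma adjusted p = 0.0221). The call was lost when any of the other 5 libraries was left out, with adjusted p of 0.0575 to 0.111 and log2 fold changes of 1.34 to 1.58. A processed pseudogene on another chromosome, Gm9847, shares 4.99% of the Socs2 sequence windows of 31 bases, of the 6.55% that recur in transcripts of any other gene.

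Cish (chromosome 9, 107296026 to 107302784, plus strand) encodes CIS, a STAT5-induced inhibitor that acts on IL-2 receptor and T cell receptor signals. The RORγt+ libraries held 1851, 1679 and 2236 normalized counts and the CCR6+RORγt- libraries 1862, 1712 and 1471. The sorts overlapped, and RORγt+ replicate 3 gave the highest value. The log2 fold change of 0.19 (95% interval −0.17 to 0.55, limma adjusted p = 0.746) did not pass and was 0.075 without that library, and the upper bound of that interval lies under the lower bound for Socs2. The antisense gene Gm17041 lies inside Cish, and another antisense gene, Gm17040, overlaps its start. In all, 10.4% of the Cish windows recur in other genes. The mean of Gm17040 was 3.57 normalized counts in RORγt+ libraries and 0.510 in the others.

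Within each library the ratio of Socs2 to Cish, which no scaling between libraries can move, was 0.469, 0.488 and 0.376 in RORγt+ Tregs and 0.143, 0.216 and 0.203 in CCR6+RORγt- Tregs. The ratio was higher in all 3 RORγt+ libraries, with means of 0.444 ± 0.060 and 0.187 ± 0.039 (SD, n = 3) and a difference of 1.26 on the log2 scale. An exact two-sided permutation test gave p = 0.1, the smallest that 3 against 3 libraries allows. The pair was chosen after its values were seen.

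STAT dimers are known to bind the palindrome TTCNNNGAA, and promoters of 4 of the 8 members (Cish, Socs1, Socs3 and Socs4) were found in the RefSeq table (GRCm38.p6, 250 bases before to 50 after the start). Socs2, Socs5 and Socs7 were not matched, and Socs6 was left out of the search. The 2 promoters that hold the motif are shown, with the motif in capitals and read 5′ to 3′ on the gene's strand.
Cish, chr9:107296619-107296678, plus strand: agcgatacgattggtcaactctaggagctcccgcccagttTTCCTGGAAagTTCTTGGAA
Socs3, chr11:117969472-117969560, minus strand: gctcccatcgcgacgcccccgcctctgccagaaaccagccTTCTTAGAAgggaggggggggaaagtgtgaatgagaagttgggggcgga
In Cish the first motif begins at the annotated RefSeq start base and the second 11 bases further on, and in Socs3 the motif begins 154 bases before the start. The motif is its own reverse complement, so each match counts for both strands. Of 32851 promoters of the same length, 8.3% hold at least 1 match and 0.457% at least 2. No match was found in the Socs1 and Socs4 windows. A match is a description of these letters and not a bound site.

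Socs3 (chromosome 11, 117966079 to 117970047, minus strand), the STAT3-induced inhibitor of IL-6 family receptors, held 1166, 1463 and 1370.3 normalized counts in RORγt+ libraries and 920.5, 918 and 846 in CCR6+RORγt- libraries. Every RORγt+ library lay above every CCR6+RORγt- library, and the CCR6+RORγt- values spread by only 4.73% of their mean. Means were 1333 ± 152 and 895 ± 42.4 (SD, n = 3). The log2 fold change was 0.57 ± 0.13 (SE, 95% interval 0.26 to 0.88), and it missed the threshold over all genes (limma adjusted p = 0.171, unadjusted p = 0.00334). Socs3 is also a gene of myeloid cells. The summed monocyte and macrophage markers were higher in the RORγt+ sort as given above. Of that list, Ly6c2 had a lower mean in RORγt+ libraries (31.7 against 33.8), and 2 dendritic cell genes were also lower. The part of these cells in the Socs3 difference was not tested. Socs1 (chromosome 16, 10782240 to 10785536, minus strand) encodes the JAK-binding inhibitor of interferon and common γ chain cytokine signals. It stood at 391, 384 and 602 normalized counts in RORγt+ libraries and at 436, 405 and 359 in the other sort. The sorts overlapped, and RORγt+ replicate 3 stood above the other 5 libraries. Its log2 fold change of 0.17 (95% interval −0.32 to 0.66, limma adjusted p = 0.852) changed sign without that library.

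Socs5 and Socs7 had the lowest fold changes of the family. Socs5 (chromosome 17, 87107679 to 87137839, plus strand) encodes an inhibitor linked to IL-4 receptor and EGF receptor signals, and its libraries held 425, 345 and 218 normalized counts in RORγt+ Tregs against 549, 521 and 559.8 in CCR6+RORγt- Tregs. The 3 CCR6+RORγt- values lay close together (coefficient of variation 3.65%) and above all RORγt+ values, which spread by 31.7%. The log2 fold change was −0.77 ± 0.25 (SE, 95% interval −1.35 to −0.20, limma adjusted p = 0.313). Without RORγt+ replicate 3, the lowest library, it was −0.50 with a narrower interval of −0.82 to −0.18 (limma adjusted p = 0.142). Socs7 (chromosome 11, 97362551 to 97398542, plus strand), whose protein is known to bind insulin receptor substrates and adaptor proteins, held 362, 395 and 333 normalized counts against 591, 412 and 582. The sorts were separated, though by a narrow margin, since CCR6+RORγt- replicate 2 lay just above the highest RORγt+ library. Means were 363 ± 30.9 and 528 ± 101 (SD, n = 3), and the log2 fold change was −0.52 ± 0.19 (SE, 95% interval −0.96 to −0.088, limma adjusted p = 0.37). Neither gene passed the test in any of the 16 alternative fits.

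Socs4 and Socs6 gave no separation of the sorts. Socs4 (chromosome 14, 47276931 to 47296102, plus strand), a relative of Socs5, held 1204, 1387 and 335 normalized counts in RORγt+ libraries and 1023, 753 and 1408 in CCR6+RORγt- libraries. It varied more between libraries of the same sort than any other member, by 57.7% of the mean in RORγt+ and 31.01% in CCR6+RORγt- Tregs. Its log2 fold change of −0.32 had a 95% interval of −1.55 to 0.91 (limma adjusted p = 0.903), so a difference of about the size seen for Socs3 was not detectable in either direction. Socs6 (chromosome 18, minus strand) encodes an inhibitor linked to KIT and T cell receptor kinases. It held 294, 316 and 215 normalized counts in RORγt+ libraries and 223, 291 and 315 in the other sort. Means were 275 ± 53.0 and 277 ± 47.9 (SD, n = 3), with a log2 fold change of −0.010 (95% interval −0.52 to 0.50, limma adjusted p = 0.994).

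**Figure D2:**
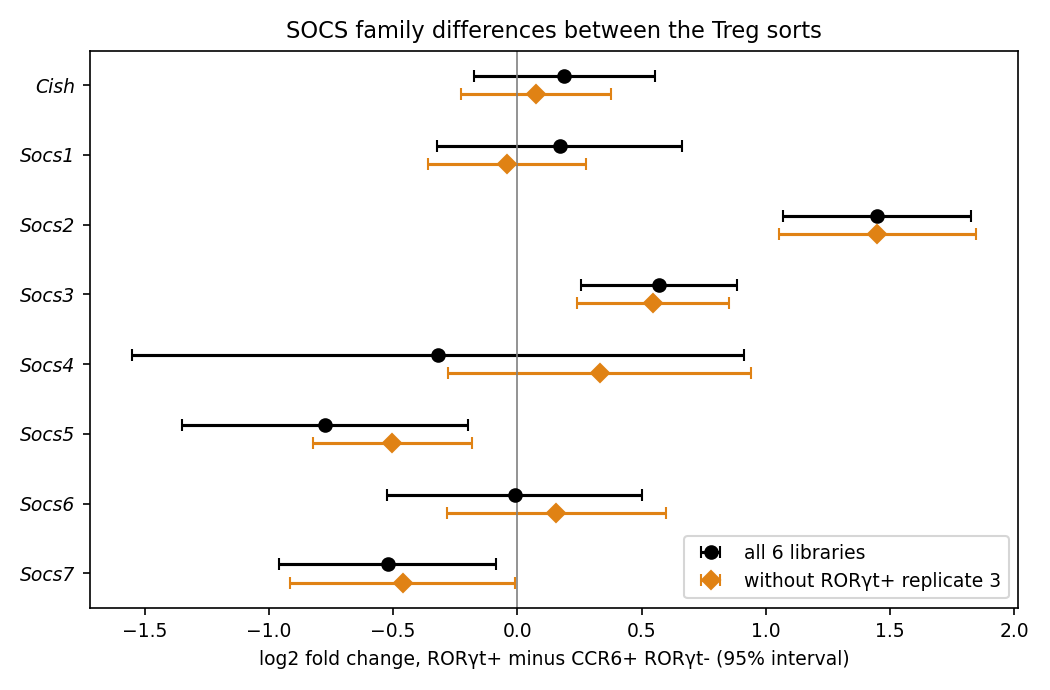
Log2 fold change of each member (horizontal axis, RORγt+ minus CCR6+RORγt-, with its 95% interval) from all 6 libraries (black) and without RORγt+ replicate 3 (orange). Socs2 stays at 1.45 in both fits, Socs4 moves from −0.32 to 0.33, and the intervals of Socs3, Socs5 and Socs7 exclude 0 in both although none passed the test over all genes.

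RORγt+ replicate 3 deviated from its group in a different direction for different members. Set against the mean of replicates 1 and 2 on the log2 scale, it was lower by −1.95 for Socs4, −0.81 for Socs5, −0.50 for Socs6 and −0.18 for Socs7. It was level for Socs2 (−0.0055) and Socs3 (0.069), and higher for Cish (0.34) and Socs1 (0.63). Over all genes, the deviation of this library differed with the base composition and length of the transcripts, and most but not all members lay on the side of their bin. Socs4 and Socs6 have longest transcripts with 38.5% and 39.9% GC, and the median deviation over all genes in the lowest of 4 equal-sized bins by GC (30.97% to 44.6%) was −0.63. Socs1 and Socs3, at 58.8% and 58.7% GC, lie in the highest bin, where the median over all genes was 0.37. Socs4, Socs5, Socs6, Socs7 and Cish lie in the bin of longest transcripts (4620 bases and more), whose median was −0.32. Cish went against its length bin with its value above 0, and Socs7 went against its GC bin, the third, whose median was 0.16. The bins hold 3176 to 3187 genes with a mean of at least 10. Median fold changes between the sorts lay between −0.042 and 0.040 over the bins. With a trend on GC and length removed in each library, a step added after seeing the data, the log2 fold changes were 1.48 for Socs2 (limma adjusted p = 0.00757), 0.50 for Socs3, −0.74 for Socs5 and −0.49 for Socs7.

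**Figure D3:**
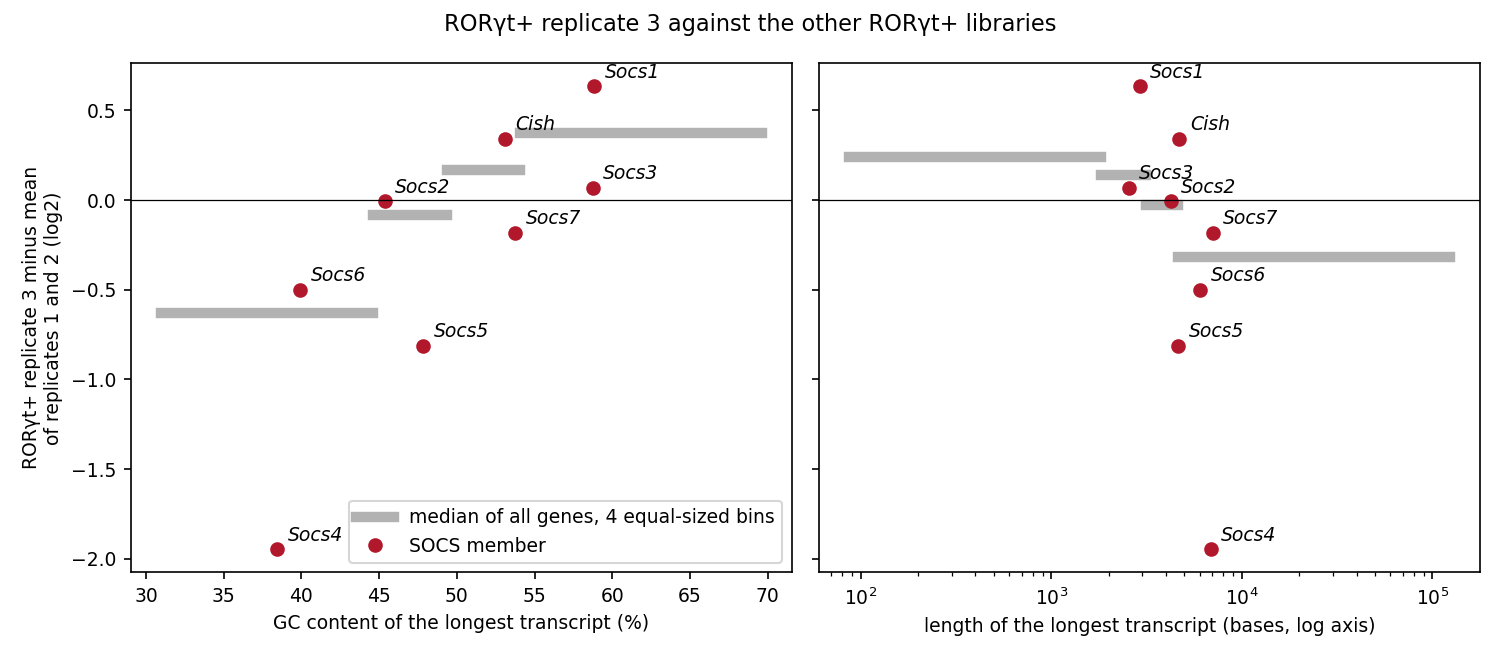
Deviation of RORγt+ replicate 3 from the mean of RORγt+ replicates 1 and 2 (vertical axis, log2 scale) for each member (red), against the GC content (left) and the length on a log axis (right) of its longest transcript; grey bars are the medians of all genes in each of 4 bins. Members low in GC lie under 0, with Socs4 at −1.95, and the grey medians run from −0.63 to 0.37 with GC.

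To compare levels between genes, normalized counts were divided by gene length in kb of all annotated exons. On this scale Socs3 led in both sorts, at 461 ± 52.5 normalized counts per kb in RORγt+ and 310 ± 14.7 in CCR6+RORγt- Tregs (SD, n = 3). Cish came next, at 299 ± 44.4 and 262 ± 30.7, and its range was separate from those of its neighbours in both sorts. Socs1 and Socs4 followed without being separated from each other, at 158 ± 42.5 and 142 ± 81.8 in RORγt+ Tregs and 138 ± 13.3 and 154 ± 47.9 in the other sort. The RORγt+ level of Socs4 rested on replicate 3, at 48.6 where the other RORγt+ libraries gave 175 and 202. Socs2 came next in RORγt+ Tregs, at 88.4 ± 2.54, above Socs5 (51.3 ± 16.3) and Socs7 (50.01 ± 4.25). In CCR6+RORγt- Tregs it came after them, at 32.6 ± 5.63, with Socs5 at 84.7 ± 3.09 and Socs7 at 72.7 ± 13.9 and no overlap of its range with theirs. Socs6 was last in both, at 24.3 ± 4.67 and 24.4 ± 4.22. Socs2 made up 6.95% ± 0.44 of the family's per-kb total in RORγt+ libraries and 3.05% ± 0.65 in CCR6+RORγt- libraries. Socs3 made up 36.1% ± 3.02 and 28.7% ± 1.77, and Socs5 4.04% ± 1.34 and 7.86% ± 0.24. The order and the shares depend on the length used. With the length of the longest transcript, Socs2 made up 12.4% ± 0.68 and 5.61% ± 1.121 of the family's total, Socs3 32.6% ± 2.93 and 26.7% ± 1.31, and Socs5 4.44% ± 1.47 and 8.91% ± 0.31. On that length Socs2 stood at 199 ± 5.72 and 73.4 ± 12.6, which puts it after Cish in RORγt+ Tregs, and Cish and Socs3 overlapped in both sorts.

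**Figure D4:**
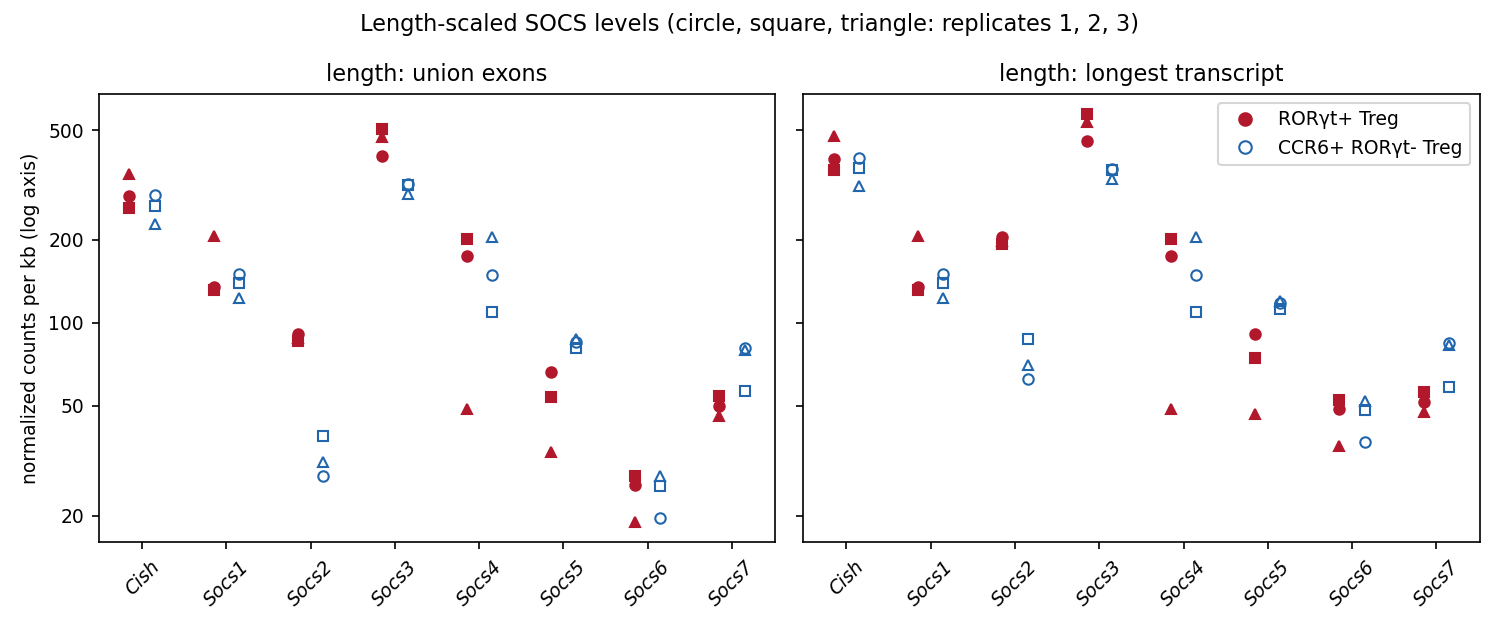
Normalized counts per kb (vertical log axis) of each member in every library, with gene length taken as all annotated exons (left) or the longest transcript (right); filled red marks are RORγt+ and open blue marks CCR6+RORγt- libraries, with circles, squares and triangles for replicates 1, 2 and 3. Socs3 and Cish lie highest and Socs6 lowest on average in both panels, and Socs2 sits at 88.4 on average in RORγt+ Tregs on the left and at 199 on the right.

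The genes with the most similar profile to each member were found among genes with a mean of at least 50, by the mean absolute difference of log2 values centred over the 6 libraries (smaller is more alike). For Socs2 these were Gna15, which encodes a G protein α subunit, at 0.0874, and Colq, which encodes the collagen-like tail of acetylcholinesterase, at 0.0959. Gna15 averaged 428 ± 12.2 and 158 ± 34.3 normalized counts and Colq 159 ± 17.5 and 59.3 ± 7.16 (SD, n = 3). For Socs3 the nearest gene was Maf, a transcription factor of RORγt+ Tregs, at 0.0508, followed by E2f2 at 0.0583. Maf held 3482, 4418 and 4481 against 3043, 2908 and 2761 normalized counts. Slco3a1 (0.0346) and Acadvl (0.0357) were nearest to Cish, Timm29 (0.0275) and Tmem185b (0.0279) to Socs1, and Slmap (0.0857) and Togaram1 (0.131) to Socs4. Gm8724 (0.0868) and Pogk (0.0872) were nearest to Socs5, Klhl7 (0.0305) and Emsy (0.0345) to Socs6, and Cox7b (0.0485) and Setd7 (0.0734) to Socs7. With 6 libraries and many candidates some close profiles are certain to be found, and Socs4's neighbour Slmap shares the drop in RORγt+ replicate 3 (409 normalized counts against 797 to 1499 in the other 5).

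The signalling genes around the family were read from 8 lists with 105 genes in the table. Il23r alone passed the test, and no gene was called lower, beside 0.564% of all genes called. The median log2 fold change was 0.015. An unadjusted p under 0.05 was reached by 11 genes with positive and 5 with negative fold changes, where 10.9% of all genes reached it. Il23r, a receptor subunit that signals through STAT3 and is restrained by SOCS3, held 15.6, 13.9 and 18.8 normalized counts in RORγt+ libraries and was listed at 0, 0 and 0.830 in the others. Its fold change of 3.79 (limma adjusted p = 0.0361) rests on few reads. The call was lost when any 1 of the 6 libraries was left out (limma adjusted p = 0.0599 to 0.169, the lowest without RORγt+ replicate 3), with a pseudocount of 0.1 (limma adjusted p = 0.119) and with the replicate block (limma adjusted p = 0.208). It held with a pseudocount of 5, at a fold change of 1.996. The γδ T cell markers Trdc and Cd163l1, given above, were higher in the same libraries, while the other 3 of that list had lower means there. The part of γδ T cells in the Il23r difference was not tested. Il23r is counted among the 26 cytokine receptors (median 0.12, 17 above and 9 below 0) and among the 10 genes linked to STAT3 (median 1.8e-05). The other receptors did not pass, including Il2ra, the high-affinity IL-2 receptor chain. It stood at 9625, 8021 and 7070.3 normalized counts in RORγt+ and 5609, 6333 and 6396 in CCR6+RORγt- libraries without overlap (log2 fold change 0.42, limma adjusted p = 0.349).

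None of the 11 Janus kinases and STATs passed in limma (1 had an unadjusted p under 0.05), and their median was −0.029. Stat2, a STAT of interferon signalling, had the smallest p. It averaged 1397 ± 37.6 against 1111 ± 126 normalized counts (SD, n = 3, limma adjusted p = 0.409), with no overlap between the sorts. Jak1, Jak3, Stat5a and Stat5b, which carry the IL-2 signal, were named after their values were seen. Jak3 had a log2 fold change with a 95% interval of −0.47 to 0.41, and Stat5b one of −0.44 to 0.21. For Jak1 the log2 fold change was −0.14 (−0.44 to 0.15), and for Stat5a it was 0.32 (−0.086 to 0.73).

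Of the 8 ubiquitin ligase partners, which include elongin B (Elob), elongin C (Eloc) and cullin-5 (Cul5), none passed in limma, 0 had an unadjusted p under 0.05, and none was separated between the sorts (median 0.076). The E2 enzyme Ube2f (limma adjusted p = 0.700) and the RING protein Rbx1 (limma adjusted p = 0.713) came closest. Among 15 other inhibitors of JAK-STAT signalling 13 had a fold change below 0, as did 8161 of all 15944 genes. The median of the 15 was −0.13 and none passed the threshold (2 had an unadjusted p under 0.05). Ptpn11, which encodes the SHP-2 phosphatase, held 1120, 1161 and 1322 against 1694, 1903 and 1789 normalized counts, a log2 fold change of −0.58 ± 0.12 (SE, limma adjusted p = 0.128). It passed without RORγt+ replicate 3 (−0.65, limma adjusted p = 0.0395) but not without any of the other 5 libraries (limma adjusted p = 0.293 to 0.451). The ubiquitin ligase Cblb averaged 1610 ± 53.9 and 1951 ± 155 (SD, n = 3, limma adjusted p = 0.458). The other SOCS box genes numbered 15, of which 9 lay above and 6 below 0, and none passed (1 had an unadjusted p under 0.05). Spsb3 averaged 559 ± 224 against 343 ± 31.8 and Asb3 322 ± 83.3 against 221 ± 28.7, and RORγt+ replicate 3 was the highest library for both. Without it the RORγt+ means were 430 and 274, and the log2 fold changes moved from 0.64 to 0.33 for Spsb3 and from 0.51 to 0.31 for Asb3.

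Genes that respond to STAT5, the pathway that induces Cish and Socs2, did not pass in any of 12 cases (median 0.071, with 2 at an unadjusted p under 0.05). Pim1, a kinase induced by STAT5, came closest at 2909, 3069 and 2788 normalized counts in RORγt+ against 1957, 2215 and 1873 in CCR6+RORγt- libraries, which did not overlap. Its log2 fold change was 0.54 ± 0.12 (SE, limma adjusted p = 0.138). None of 10 other binding partners of SOCS proteins passed (2 had an unadjusted p under 0.05). Igf1r, the IGF-1 receptor that SOCS2 is known to bind, had the smallest p. It held 1063, 1009 and 1266 normalized counts in RORγt+ Tregs and 2043, 1910.1 and 1951 in CCR6+RORγt- Tregs, so Socs2 and Igf1r were separated in opposite directions. Its log2 fold change of −0.83 ± 0.13 (SE) missed the threshold (limma adjusted p = 0.0514). It passed without RORγt+ replicate 3 (−0.92, limma adjusted p = 0.0140), but leaving out any of the other 5 libraries gave limma adjusted p of 0.169 to 0.287. The limma adjusted p was 0.193 with the GC and length trend removed (−0.75) and 0.313 with the replicate block. Igf1r passed with a pseudocount of 5, upper-quartile scaling, a mean of at least 10 and array weights (limma adjusted p = 0.00419 to 0.0466). It missed with a pseudocount of 0.1, equal column totals, robust variances and quantile normalization (limma adjusted p = 0.0517 to 0.0608). Kit, a receptor that SOCS6 is known to bind, held 16.5, 31.9 and 18.8 against 2.99, 1.76 and 6.06 normalized counts (limma adjusted p = 0.142). The separated γδ T cell and monocyte and macrophage markers given above were higher in the same libraries. The other 3 γδ T cell genes and the monocyte and macrophage marker Ly6c2 had lower means there, and the 2 separated dendritic cell genes were lower. The part of these cells in the Kit difference was not tested.

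**Figure D5:**
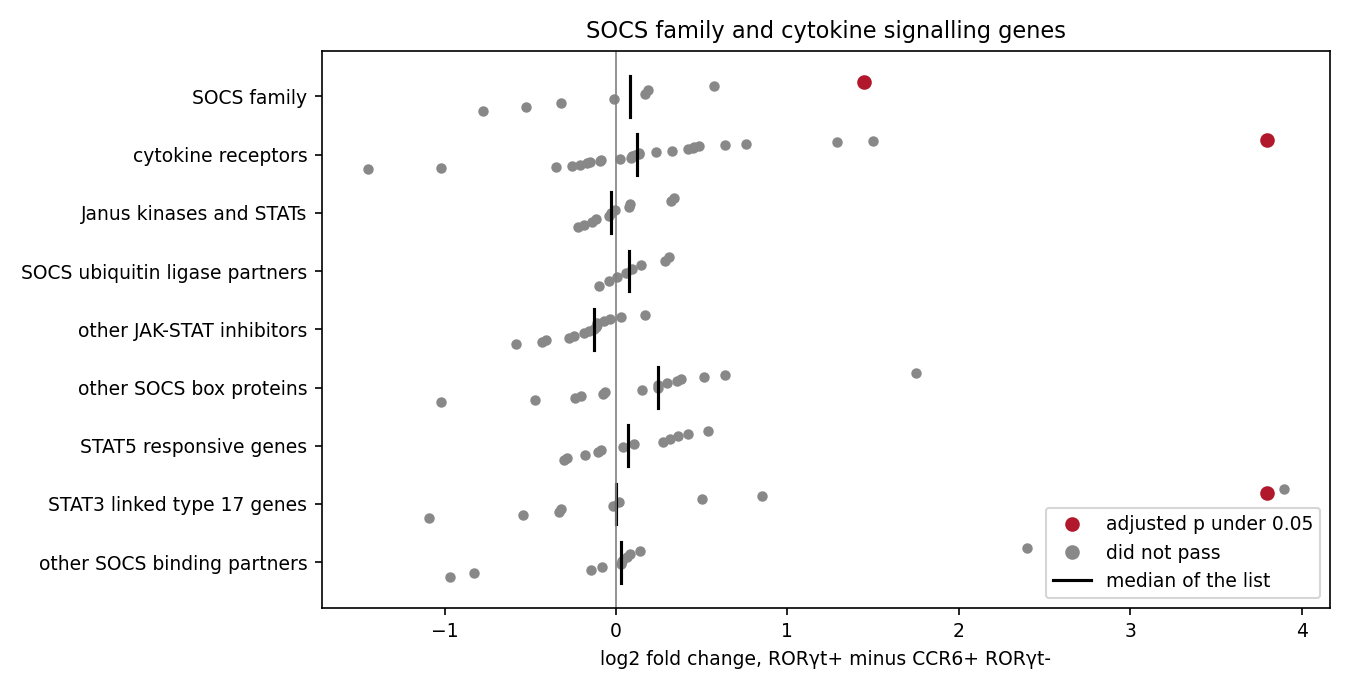
Log2 fold change (horizontal axis, RORγt+ minus CCR6+RORγt-) of the SOCS family and of each gene in the 8 signalling lists; red points passed the test over all genes, grey points did not, and black bars are list medians. Socs2 (1.45) and Il23r (3.79, shown in both lists that hold it) are the red points, and the list medians lie between −0.13 and 0.25.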

How the data were processed

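RNA of 6 libraries, 3 per sort, was measured by bulk RNA-seq. The values deposited by the authors are a signal per gene and library, normalized counts with 2 decimals and not raw counts. Per the submitters' processing notes, Salmon 1.2.0, DESeq2 (no version) and the build GRCm38 were used, with no step assigned to any of them. Annotation, strand setting and import: not given in the sources used here. Column totals lay between 11325902 and 11890770. The design named a count test for raw counts, which these values do not allow, so its form for normalized values was used: log2(value + 1), no filter, limma 3.58.1 in R 4.3.3 with a mean-variance trend, two-sided, fitted on all 15944 genes and adjusted over them, at 4 residual and 3.43 prior degrees of freedom. The fit was tested on simulated counts. Depth came from the step between low values. Intervals are at 95%. Positions and lengths came from GENCODE M21 (GRCm38), which holds 15851 of the genes.

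The members and gene lists were chosen with earlier results of these data known. Named genes were the members, every list gene past the threshold or else the 2 with the smallest adjusted p, the 2 nearest profiles of each member, and the 2 most abundant genes of each marker list. Others are said to be named after their values were seen. A result that this rule covers is not reported here. Alternatives were other pseudocounts, scalings, a mean filter, robust variances, array weights, a replicate block, each library left out and, added after seeing the data, quantile normalization and removal of a GC and length trend.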

Additional observations from a re-analysis of the deposited data

How the results depend on the processing

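Of the 8 members, Socs2 was called in 10 of 16 alternative fits and no member was called lower in any. The count of members called higher was 0 with a replicate block (Socs2 adjusted p = 0.159) and 0 to 1 with a library left out. Deviations of libraries with the same replicate number from their group means correlated at −0.17, −0.045 and −0.28. RORγt+ replicate 3 enters the group mean behind each of these values, so they cannot show whether the numbers pair the libraries. Pathway genes called higher numbered 0 with a pseudocount of 0.1, a mean of at least 10 and the replicate block. The filter on the mean removed Il23r before the fit, so it was not tested there. Pathway genes called higher numbered 2 with a pseudocount of 5 and with the GC and length trend removed. With array weights there were 4, and with any 1 library left out 0. Pathway genes called lower numbered 1 with a pseudocount of 5, upper-quartile scaling or a mean of at least 10, 2 with array weights, and 0 to 2 with a library left out. Over all genes 90 were called, 358 with array weights, 173 with the trend removed, 1 with the block and 4 to 174 with a library left out. The sign of the log2 fold change turned for Socs6 with equal column totals (0.019), array weights (0.10) and the trend removed (0.0017), and without CCR6+RORγt- replicates 2 (0.035) and 3 (0.092) or RORγt+ replicate 3 (0.16). It turned for Socs4 with array weights (0.24) and without RORγt+ replicate 3 (0.33), and for Socs1 without that library (−0.041). The cause was not tested. Leaving out a library gave log2 fold changes of −0.69 to 0.33 for Socs4, −0.16 to 0.16 for Socs6 and −0.041 to 0.28 for Socs1. Fewer libraries also leave fewer degrees of freedom.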
